A study of Paraphaeosphaeria sporulosa with 23 samples.

Results

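Among the 14844 genes with RefSeq locus tags in the filamentous fungus Paraphaeosphaeria sporulosa AP3s5-JAC2a, 199 were at least 2-fold higher with selenite after 1 day and at least 2-fold lower with selenite after 6 days. They were chosen by that pattern: the log2 difference between the group means, taken after adding a pseudocount of 0.5, had to be 1 or more at day 1 and -1 or less at day 6. Levels are in scaled CPM, the deposited CPM (reads of a gene as a share of all reads in genes) divided by a factor per library, the median ratio of its genes to their geometric means. The mirror pattern, lower at day 1 and higher at day 6 past the same thresholds, was met by 119 genes.

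The groups were 5 libraries from cultures with 0.1 mM sodium selenite for 1 day, 6 controls without selenite at day 1, 4 libraries from cultures with selenite for 6 days, 5 controls at day 6 and 3 controls at day 0. All came from whole still cultures of this strain in a yeast extract medium, grown in the dark from homogenised mycelium of a 14-day preculture, and 18 days of growth preceded day 0. The labels put all libraries in the same batch and do not tell if each replicate had its own flask. The p-values thus reflect how far these libraries scatter, which may in part be technical. In whole cultures, fewer cells that use a gene and less of its RNA per cell cannot be told apart.

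Selenite is an oxyanion of selenium(IV) that is toxic to most cells. Many fungi reduce it to red elemental selenium or to volatile organic selenium compounds, and thiols such as glutathione take part in its reduction and in the oxidative stress that goes with it. Paraphaeosphaeria sporulosa is an ascomycete known for oxidising manganese and for reducing selenite. The genes carry locus tags only: the sources used here pair none of the 199 with a product or a role, so they are described by their levels, positions and gene models.

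The libraries held 23282564 to 32681888 reads in genes. The scaling factors were 0.511 to 0.650 in selenite libraries of day 1, 0.822 to 0.934 in controls of day 1, 1.21 to 1.51 in selenite libraries of day 6, 1.35 to 1.57 in controls of day 6 and 1.06 to 1.61 at day 0, so changes that involve the selenite libraries of day 1 lean most on the scaling. A read was worth 0.0306 to 0.0430 CPM. In these genes 4 control libraries stood apart from the others of their group: replicates 1 and 3 of day 6, replicate 1 of day 1 and replicate 1 of day 0. Their values follow, and calls that rest on them are given without them.

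The 2 arms moved in opposite directions between the sampling days. With selenite, 197 of the 199 genes had a lower mean at day 6 than at day 1, 153 of them at least 2-fold lower, with a median log2 difference of -1.61. In controls, 185 had a higher mean at day 6 than at day 1, 160 of them at least 2-fold higher, with a median of 1.74. Over all 13676 genes tested these medians were -0.06 with selenite and 0.08 in controls. The rule fixes the distance between the arms but not how each arm contributes. For 114 genes both parts were at least 2-fold, for 46 only the increase in controls was, and for 38 only the decrease with selenite was. CC84DRAFT_1257877 was the 1 gene at least 2-fold lower at day 6 than at day 1 in both arms, and was chosen here after its values were seen. It had 771 ± 239 scaled CPM with selenite at day 1 (SD, n = 5), 371 ± 70.8 in controls of day 1 (n = 6), 46.2 ± 7.43 with selenite at day 6 (n = 4), 164 ± 61.8 in controls of day 6 (n = 5) and 262 ± 52.8 at day 0 (n = 3).

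The highest of the 5 group means lay in the selenite libraries of day 1 for 98 of the 199 genes, in the controls of day 6 for 90 and in the controls of day 0 for 11. The lowest lay in the selenite libraries of day 6 for 65, in the controls of day 1 for 110 and at day 0 for 24. Other groups could not hold the extremes under the rule. Over all tested genes day 0 held the highest mean for 15.7% and the lowest for 21.7%. The map of levels shows these blocks, with red columns for selenite at day 1 and controls at day 6 and blue columns for controls at day 1 and selenite at day 6.

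**Figure D1:**
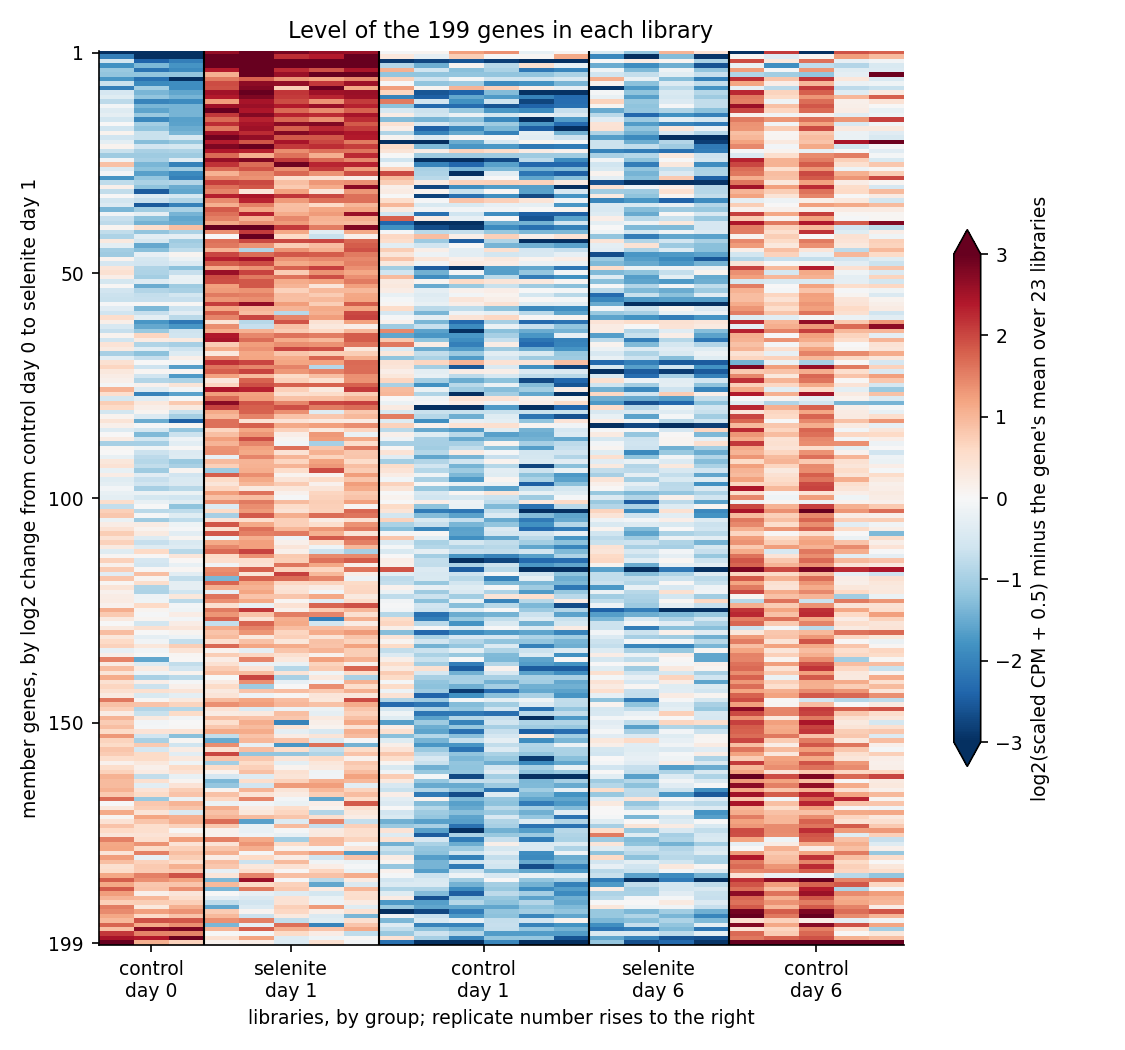
Level of the 199 genes (rows) in the 23 libraries (columns, by group), as log2(scaled CPM + 0.5) minus the mean of the gene over all libraries. Red is above and blue below that mean, and rows are ordered by the log2 change between day 0 and selenite at day 1. Levels were high in selenite libraries of day 1 and controls of day 6, and replicates 1 and 3 of the day 6 controls were redder than the others.

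Together the 199 genes took 4.97% ± 0.737 of all reads in selenite libraries of day 1 (SD, n = 5), against 2.51% ± 0.356 in controls of that day (n = 6). At day 6 their share was 0.920% ± 0.161 with selenite (n = 4), against 5.39% ± 1.99 in controls (n = 5), and at day 0 it was 2.51% ± 0.794 (n = 3). A few genes dominate these shares: the 4 with the highest level in selenite libraries of day 1 made up 62.2% of the summed level there, 59.5% in controls of day 1, 41.4% with selenite at day 6, 51.0% in controls of day 6 and 44.5% at day 0. The median over the 199 genes of the log2 level weighs all genes alike. It was 3.61 to 3.93 in selenite libraries of day 1 and 1.01 to 2.64 in controls of that day, 1.87 to 2.59 with selenite at day 6 and 3.30 to 4.26 in controls of that day, and 2.33 to 2.99 at day 0. The sum and the median part ways for controls of day 1, where the summed level was 0.53 above day 0 on the log2 scale and the median gene was 0.70 below it.

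**Figure D2:**
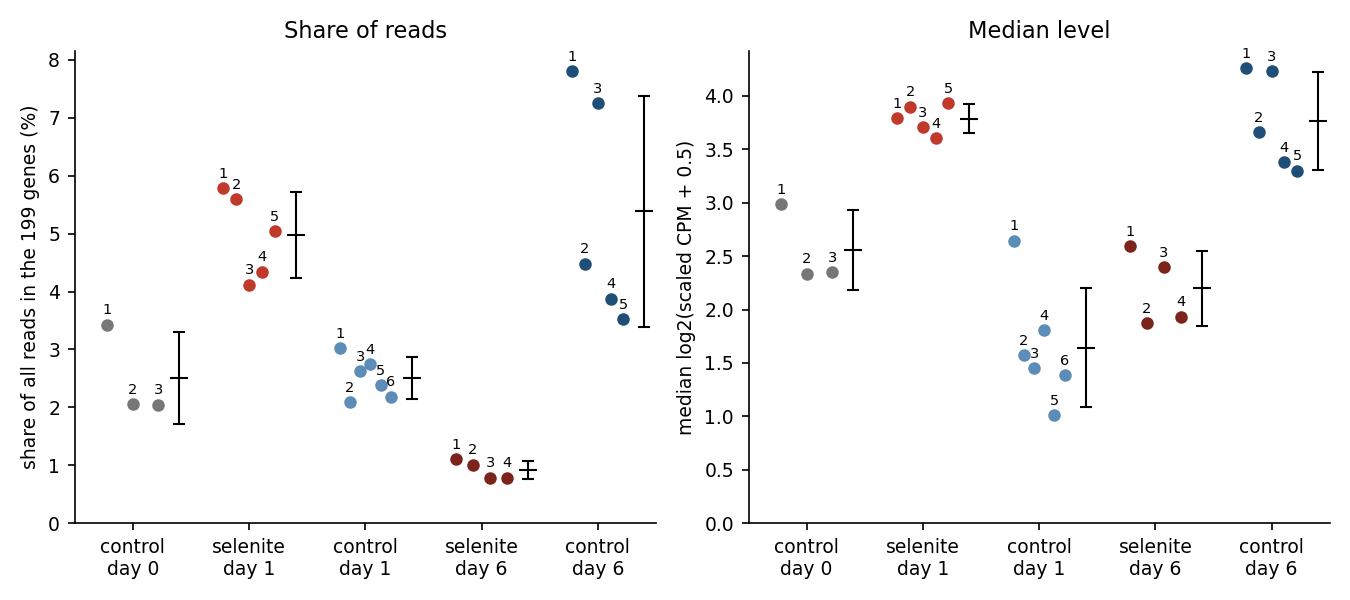
Left, percentage of all reads that fell in the 199 genes, and right, their median log2(scaled CPM + 0.5), for each library. Numbers are replicates and bars are the mean ± SD of the group. Replicates 1 and 3 of the day 6 controls (7.81% and 7.25% of reads) lay above the other 3 controls of that day. In both panels replicate 1 lay above the others at day 0 and among the controls of day 1.

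By design the differences between selenite and control at the same day are a description. At day 1 their median over the 199 genes was 1.59 on the log2 scale (range 1.01 to 7.53), and at day 6 it was -1.44 (range -7.11 to -1.002). Over all genes tested the medians were 0.13 and 0.07. The difference was 2 or more at day 1 for 61 genes and -2 or less at day 6 for 40, and both held for 15. All 5 selenite libraries lay above all 6 controls at day 1 for 111 of the 199 genes (23.3% of all tested genes), and all 4 selenite libraries lay below all 5 controls at day 6 for 118 (19.1% of all tested genes). Both held for only 67 of the 199, so most of the genes overlapped on at least 1 day. The share of all tested genes for both days together was not taken.

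The 6 genes with the largest differences, taken by the smaller of the 2 sizes, begin with CC84DRAFT_1138657, which has 3 exons and lies at 2845729 to 2847183 of scaffold NW_017253361.1, minus strand. Its log2 differences were 3.10 at day 1 and -7.11 at day 6. It had 19.2, 20.5, 13.3, 24.9 and 16.8 scaled CPM in selenite libraries of day 1 and 0 to 4.20 (median 1.40) in the controls of that day. At day 6 it had 7.68, 2.43, 3.16 and 1.90 scaled CPM with selenite and 879, 331, 1154, 331 and 264 in controls, and at day 0 it had 269, 37.6 and 29.2. The groups did not overlap on either day, and selenite libraries of day 1 lay below all 3 day 0 controls. Unlike most of the 199 genes it was thus below its level of day 0 in both groups of day 1 and with selenite at day 6, and above it only in controls of day 6, by 2.88 ± 0.68 on the log2 scale (SE; limma adjusted p = 0.00427), or 2.28 with an adjusted p of 0.0593 without replicate 3 of day 0. The fall at day 1 with selenite was -1.82 ± 0.68 against day 0 (limma adjusted p = 0.023), and -0.83 with an adjusted p of 0.309 without replicate 1 of day 0. That call was also lost with a pseudocount of 0.1 (limma adjusted p = 0.0753). The call in controls of day 6 was also lost under edgeR (adjusted p = 0.0525).

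CC84DRAFT_1143481, of 3 exons on the minus strand of NW_017253363.1 (1595675 to 1596855), had 195, 141, 213, 152 and 113 scaled CPM in selenite libraries of day 1, against 1.09 to 39.8 (median 20.01) in controls. By day 6 the gene had 24.2, 13.4, 20.5 and 4.89 scaled CPM with selenite, against 87.4, 46.4, 68.2, 209 and 295 in controls, and at day 0 it had 30.6, 15.4 and 17.0. Neither day showed overlap. The day 6 controls with the most of it were replicates 4 and 5, not replicates 1 and 3. Against day 0 it rose with selenite at day 1, by 2.95 ± 0.76 (SE; limma adjusted p = 0.0016), and selenite at day 6 gave -0.55 ± 0.79 (adjusted p = 0.606).

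A pair of neighbours with nothing annotated between them, CC84DRAFT_1081866 (3 exons, 3803211 to 3805051) and CC84DRAFT_1237528 (6 exons, 3805741 to 3807068), both on the minus strand of NW_017253361.1, stood among the 6. CC84DRAFT_1237528 had 382, 244, 121, 137 and 220 scaled CPM in selenite libraries of day 1 and 21.3 to 57.3 (median 29.6) in controls. At day 6 there were 6.36, 2.52, 10.2 and 2.99 scaled CPM with selenite and 26.8, 19.7, 26.8, 61.7 and 50.6 in controls, against 5.79, 2.45 and 0.998 at day 0. No selenite library overlapped the controls of its day, and the selenite libraries of day 6 were near the level of day 0. Relative to day 0 it rose in selenite libraries of day 1 by 6.07 ± 0.47 (SE; limma adjusted p = 5.12e-11), in controls of day 1 by 3.44 ± 0.45 (adjusted p = 3.83e-06) and in controls of day 6 by 3.50 ± 0.47 (adjusted p = 3.67e-05). With selenite at day 6 the value was 0.80 ± 0.49 (adjusted p = 0.198).

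Its neighbour CC84DRAFT_1081866 had 13.4, 15.3, 14.5, 11.7 and 11.3 scaled CPM in selenite libraries of day 1, against 0 to 3.57 (median 1.22) in controls. Day 6 libraries had 4.49, 5.10, 7.14 and 3.82 scaled CPM with selenite, against 32.5, 18.0, 31.9, 21.5 and 41.6 in controls, and at day 0 it had 3.07, 1.82 and 1.70. The pair differed in where it peaked: CC84DRAFT_1081866 had its highest mean in controls of day 6 and CC84DRAFT_1237528 in selenite libraries of day 1. CC84DRAFT_1081866 rose against day 0 with selenite at day 1, by 2.38 ± 0.47 (SE; limma adjusted p = 0.000103), and in controls of day 6, by 3.43 ± 0.47 (adjusted p = 4.01e-05). The genes on either side of the pair were not members, with log2 differences at days 1 and 6 of 2.02 and 0.31 for CC84DRAFT_1237515 and of -1.74 and -3.59 for CC84DRAFT_1161520.

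CC84DRAFT_1169637, of 2 exons on the minus strand of NW_017253375.1 (56998 to 57964), had 38.7, 28, 45.1, 42.8 and 21.4 scaled CPM in selenite libraries of day 1 and 2.86 to 9.56 (median 5.28) in controls. At day 6 it had 4.55, 5.22, 5.79 and 6.68 scaled CPM with selenite, against 75.4, 28.4, 74.1, 23.3 and 36.5 in controls, and day 0 had 26.6, 14.9 and 17.8. The groups did not overlap on either day. Here the controls of day 1 and the selenite libraries of day 6 shared a low level, below all 3 day 0 controls. Both fell against day 0, with selenite at day 6 by 1.71 ± 0.39 on the log2 scale (SE; limma adjusted p = 0.000975) and in controls of day 1 by 1.69 ± 0.36 (adjusted p = 0.000979). The rise in controls of day 6 was 1.12 ± 0.37 (adjusted p = 0.034), and 0.59 with an adjusted p of 0.318 without replicates 1 and 3. That call was also lost without any 1 of replicates 1 and 3 of day 6 and 2 and 3 of day 0. A limma fit to only the 2 groups compared lost it too (1.07, adjusted p = 0.0656).

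The last of the 6, CC84DRAFT_1083401, of 3 exons on the plus strand of NW_017253361.1 (870212 to 870690), took the most reads of the 199 in selenite libraries of day 1 and at day 0. It is a short gene, with 375 bases of exon. It had 35219, 29566, 17177, 17119 and 24594 scaled CPM in selenite libraries of day 1, against 3060 to 4989 (median 4151) in controls. By day 6 the gene had 1512, 1259, 478 and 579 scaled CPM with selenite and 9442, 5038, 9073, 4133 and 3443 in controls, and at day 0 it had 3193, 2963 and 3397. The selenite libraries of day 1 lay above and those of day 6 below every control library of the series. Per kilobase of exon, its mean level was 65960 scaled CPM with selenite at day 1, 10996 in controls of day 1, 2553 with selenite at day 6, 16602 in controls of day 6 and 8492 at day 0. Against day 0 it rose by 2.90 ± 0.47 with selenite at day 1 (SE; limma adjusted p = 8.33e-06) and fell by 1.90 ± 0.49 with selenite at day 6 (adjusted p = 0.00292). The controls gave 0.35 ± 0.45 at day 1 (adjusted p = 0.623) and 0.85 ± 0.47 at day 6 (adjusted p = 0.21).

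**Figure D3:**
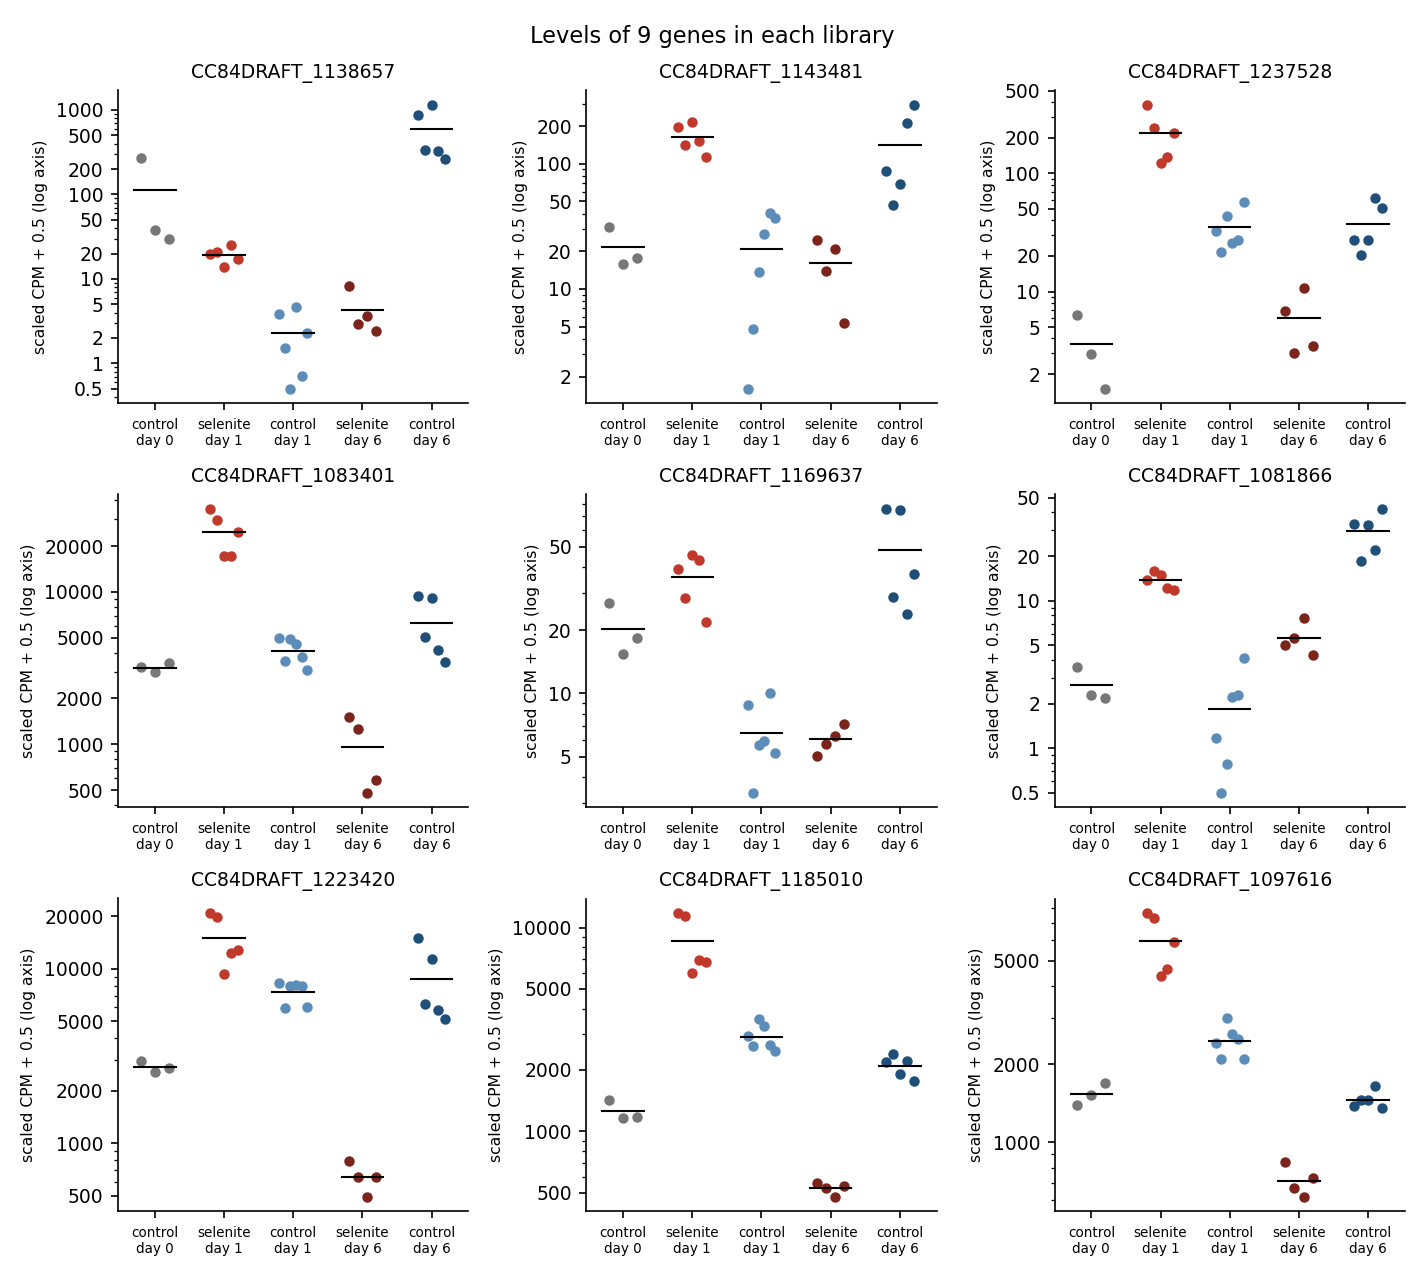
Level of 9 genes in each library, as scaled CPM + 0.5 on a log axis. The first 6 panels are the genes with the largest differences and the last 3 are others with high levels at day 1 with selenite. Points are libraries and lines are group means. In each of the 9 panels the selenite libraries lay above the controls at day 1 and below them at day 6 without overlap.

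The other genes among the 4 highest with selenite at day 1 had this shape at another size. CC84DRAFT_1223420, of 2 exons on the minus strand of NW_017253375.1 (679473 to 680181), had 20909, 19636, 9256, 12252 and 12735 scaled CPM in selenite libraries of day 1 and 5919 to 8221 (median 7941) in controls. At day 6 there were 792, 637, 491 and 637 scaled CPM with selenite, against 15011, 6234, 11334, 5756 and 5128 in controls, and 2935, 2570 and 2690 at day 0. The small difference at day 1 (1.02 on the log2 scale) sat beside a large one at day 6 (-3.76). Against day 0 it rose at day 1 with selenite by 2.39 ± 0.43 (SE; limma adjusted p = 3.7e-05) and in controls by 1.42 ± 0.42 (adjusted p = 0.0127). At day 6 it fell by 2.11 ± 0.45 with selenite (adjusted p = 0.000518) and rose by 1.54 ± 0.43 in controls (adjusted p = 0.0135). The control call of day 6 was lost without replicates 1 and 3 of that group (1.07, adjusted p = 0.0634) and without replicate 2 or 3 of day 0 (1.49 and 1.53, adjusted p = 0.0703 and 0.0625), and that of day 1 without replicate 2 of day 0 (1.37, adjusted p = 0.0549). A limma fit to only the 2 groups compared also lost the day 6 call (1.48, adjusted p = 0.113). Library size alone lost the control call of day 1 (0.93, limma adjusted p = 0.0503).

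CC84DRAFT_1185010, of 2 exons on the plus strand of NW_017253362.1 (558854 to 559778), had 11820, 11326, 5969, 6962 and 6801 scaled CPM in selenite libraries of day 1 and 2471 to 3557 (median 2788) in controls. Day 6 libraries had 559, 525, 476 and 540 scaled CPM with selenite and 2190, 2404, 1910, 2218 and 1770 in controls, and at day 0 it had 1420, 1156 and 1181. With selenite at day 1, replicates 1 and 2 lay well above the other 3, and replicates 1 and 3 of the day 6 controls did not stand apart in it. It rose against day 0 at day 1 with selenite (2.72 ± 0.29, SE; limma adjusted p = 1.44e-08) and in controls (1.21 ± 0.28, adjusted p = 0.00201), and fell at day 6 with selenite (-1.25 ± 0.30, adjusted p = 0.00174).

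CC84DRAFT_1097616, of 2 exons on the minus strand of NW_017253367.1 (330605 to 332269), had 7641, 7281, 4356, 4648 and 5882 scaled CPM in selenite libraries of day 1 and 2094 to 2999 (median 2451) in controls. At day 6 it had 837, 669, 617 and 726 scaled CPM with selenite and 1378, 1450, 1457, 1647 and 1356 in controls, near the 1395, 1527 and 1698 of day 0. Here the controls of day 6 overlapped those of day 0, while the selenite libraries of day 6 lay below both. Its changes from day 0 were 1.92 ± 0.27 with selenite at day 1 (SE; limma adjusted p = 1.07e-06) and -1.12 ± 0.28 with selenite at day 6 (adjusted p = 0.00235), and the controls of day 6 gave -0.08 ± 0.27 (adjusted p = 0.89). CC84DRAFT_633354, with 1 exon at 1259818 to 1262509 of NW_017253363.1, minus strand, was alike in this. It averaged 4521 ± 1096 scaled CPM with selenite at day 1 (SD, n = 5), 1587 ± 365 in controls of day 1 (n = 6), 409 ± 55.5 with selenite at day 6 (n = 4), 1199 ± 116 in controls of day 6 (n = 5) and 1339 ± 647 at day 0 (n = 3). Replicate 1 of day 0 stood high with 2058 scaled CPM, beside 1155 and 805 in replicates 2 and 3. It rose with selenite at day 1 by 1.83 ± 0.29 and fell with selenite at day 6 by 1.61 ± 0.30 (SE; limma adjusted p = 6.97e-06 and 0.000137).

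CC84DRAFT_8385, of 13 exons on the minus strand of NW_017253360.1 (524898 to 527882), was among the 4 highest in controls of day 6 and showed the limits of group means. It had 854, 1115, 519, 506 and 986 scaled CPM in selenite libraries of day 1. The controls of day 1 had 1206, 243, 58.3, 184, 25.6 and 35.1, so that replicate 1 lay above all selenite libraries and the other 5 below them. By day 6 the gene had 104, 27.2, 72.6 and 33.3 scaled CPM with selenite and 2243, 1280, 2306, 1526 and 1736 in controls, against 546, 334 and 338 at day 0. With selenite at day 6 it was lower than at day 0 by 2.94 ± 0.79 on the log2 scale (SE; limma adjusted p = 0.00407). Its rise in controls of day 6 (2.16 ± 0.75, adjusted p = 0.0423) was lost without replicates 1 and 3 of that group (1.94, adjusted p = 0.15), without any 1 of the 5 day 6 controls except replicate 2, and without any 1 of the day 0 controls (adjusted p = 0.0503 to 0.148). With all 23 libraries it was lost under edgeR, limma-voom and DESeq2 (adjusted p = 0.0824, 0.0739 and 0.0750). A limma fit without the filter on low reads lost it too (adjusted p = 0.0629).

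The day 0 controls, which did not enter the rule, set the selenite and control levels against a common start. The selenite or control libraries on the other side of each comparison did enter it, and all 4 comparisons share the 3 day 0 libraries, so the counts are to be read beside the share of all tested genes and not as independent of each other. All 199 genes passed the filter on low reads.

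In selenite libraries of day 1, 112 of the 199 genes differed from day 0 (59.9% of all tested genes), 105 higher (32.6% of all tested genes) and 7 lower (27.3%). The share called was close to that of all genes, while its direction was mostly upward, with a median log2 change of 1.13 for the 199 genes and 0.10 for all genes. The means of 112 genes were at least 2-fold above day 0 (29.8% of all tested genes), those of 5 at least 2-fold below it (21.3%), and 82 lay within 2-fold. CC84DRAFT_1237528 (6.07) was among the highest, while CC84DRAFT_323735, of 1 exon on the plus strand of NW_017253371.1 (1191002 to 1192431), stayed at 24.5 ± 7.06 scaled CPM with selenite (SD, n = 5) beside 26.7 ± 4.81 at day 0 (n = 3). The direction leaned on scaling: with library size alone, 80 genes were called, 47 higher and 33 lower, where 65.8% of all tested genes were called and the median of all genes shifted by -0.82 on the log2 scale.

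In controls of day 1, 83 of the 199 genes differed from day 0 (27.6% of all tested genes), 13 higher (14.2%) and 70 lower (13.4%). Their median log2 change was -0.83, and -0.04 over all genes. Without replicate 1 of day 0 the count was 58, 12 higher and 46 lower, where 21.4% of all tested genes were called. It was 66 without replicate 2 of day 0 (58 lower, 20.6% of all tested genes) and 65 without replicate 3 (57 lower, 20.8%). CC84DRAFT_323735 fell by 1.56 ± 0.31 on the log2 scale in controls of day 1 (SE; limma adjusted p = 0.000545), so that its difference between selenite and control at day 1 came with a lower control level. CC84DRAFT_1237528 and CC84DRAFT_1223420 went the other way in the same controls (3.44 and 1.42).

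In selenite libraries of day 6, 62 of the 199 genes differed from day 0 (41.7% of all tested genes), 5 higher (3139 of the 13676 tested genes) and 57 lower (18.7% of all tested genes). Their median log2 change was -0.56, and 0.12 over all genes. Without replicate 1 of day 0 the count was 57, 11 higher and 46 lower, where 36.6% of all tested genes were called. It was 54 without replicate 2 of day 0 (52 lower, 34.1% of all tested genes) and 54 without replicate 3 (53 lower, 33.3%). The means of 61 genes were at least 2-fold below day 0 (14.8% of all tested genes), those of 10 at least 2-fold above it (21.7%), and 128 lay within 2-fold. Among the high genes, CC84DRAFT_1223420, CC84DRAFT_1083401 and CC84DRAFT_633354 fell below their level of day 0, by 2.11, 1.90 and 1.61 on the log2 scale.

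In controls of day 6, 71 of the 199 genes differed from day 0 (20.9% of all tested genes), 67 higher (10.6%) and 4 lower (10.3%). Their median log2 change was 0.91, and 0.08 over all genes. Without replicates 1 and 3 of this group the count was 34, 29 of them higher, where 10.7% of all tested genes were called. It was 33 without replicate 2 of day 0 (8.53% of all tested genes) and 34 without replicate 3 of day 0 (8.44%), so the share of all genes dropped too. CC84DRAFT_1176709, of 1 exon on the plus strand of NW_017253365.1 (596801 to 597178), was 1 of the 4 that fell, by 1.54 ± 0.32 (SE; limma adjusted p = 0.00157), and with selenite at day 6 it fell by 2.59 ± 0.33 against day 0 (adjusted p = 7.12e-07).

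**Figure D4:**
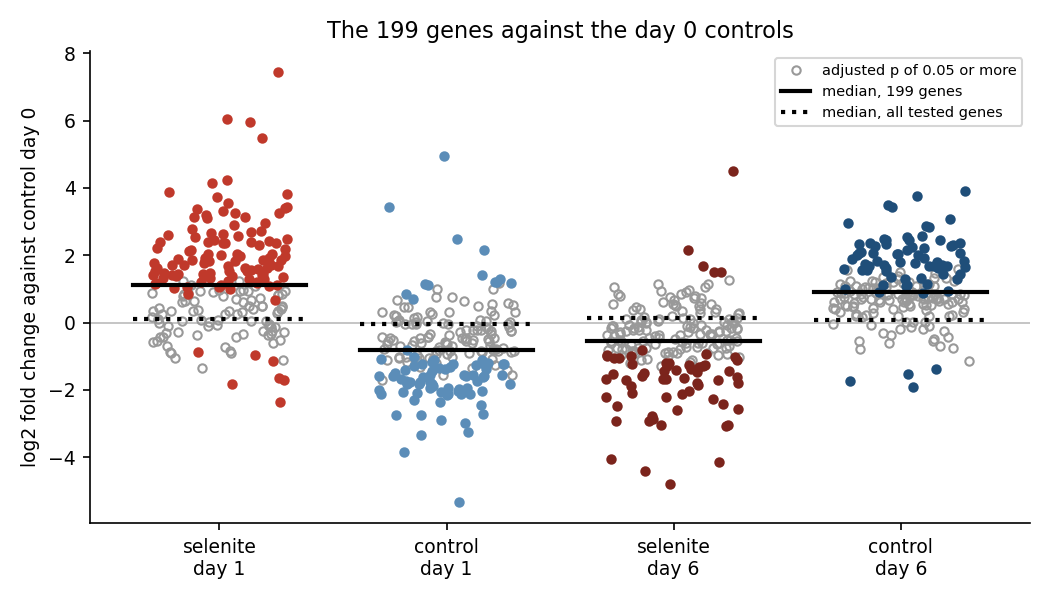
Log2 fold change of each of the 199 genes against the day 0 controls in 4 groups, from limma. Filled points had an adjusted p under 0.05 and open points did not, thick lines are medians of the 199 genes (1.13, -0.83, -0.56 and 0.91 in the order drawn) and dotted lines medians of all tested genes (0.10, -0.04, 0.12 and 0.08). The medians lie above 0 for selenite at day 1 and controls at day 6, and below 0 for controls at day 1 and selenite at day 6.

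Within control groups, where no library had selenite, many of the 199 genes were high in the same libraries. The controls of days 1 and 6 entered the rule, so their counts are a description. Replicates 1 and 3 of the day 6 controls both lay above the other 3 for 140 of the 199 genes (25.7% of all tested genes) and below them for 7 (19.3%). Replicate 1 of the day 1 controls was above the other 5 for 124 (27.1%) and below them for 7 (24.2%). Replicate 1 of day 0, a group the rule did not use, was above the other 2 for 138 (39.6%) and below them for 25 (35.0%). The median log2 distance of these libraries from the others of their group was 0.90 at day 6, 0.90 at day 1 and 0.54 at day 0 over the 199 genes, and 0.05, 0 and 0 over all tested genes. The scaling holds the median over all genes near 0, so it does not show that other genes were alike. A ratio of squared read differences to counting error was averaged over all genes with enough reads. At day 6 it was 423 to 620 between replicate 1 and replicates 2, 4 and 5, and 59.6 between replicates 1 and 3. At day 1 it was 271 to 508 for replicate 1 and 45.7 to 161 among the others. At day 0 it was 499 and 571 for replicate 1, and 30.6 for the other 2.

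The scaling factors of these libraries were 1.57 and 1.56 for the 2 at day 6 (1.35 to 1.43 in the other 3), 0.929 at day 1 (0.822 to 0.934) and 1.61 at day 0 (1.13 and 1.06). The share of reads takes no factor and so carries what the factors correct. It was 7.81% and 7.25% at day 6 (3.52% to 4.48% in the others), 3.02% at day 1 (2.08% to 2.75%) and 3.43% at day 0 (2.05% and 2.04%). The summed scaled level was 49773 and 46523 at day 6 (24573 to 31325 in the others). It set replicate 1 less apart at day 1, with 32499 (23423 to 31963), and at day 0, with 21290 (18244 and 19220). High levels of replicates 1 and 3 raise the mean of the day 6 controls and so help a gene to meet the rule at day 6, while the high replicate of day 1 works against it. Without replicates 1 and 3 of day 6, all 199 differences at day 6 stayed below 0, their median was -1.08 (-1.44 with them), and 112 still met the threshold. Without replicate 1 of the day 1 controls the median difference at day 1 was 1.80 (1.59 with it), and 198 met the threshold. What set these libraries apart was not tested.

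A few genes were at or near no reads at the start. CC84DRAFT_186491 and CC84DRAFT_1100329, on NW_017253369.1 (122741 to 123804, plus strand, and 1154450 to 1155229, minus strand), were the 2 without a read in any day 0 library, named after their values were seen. CC84DRAFT_186491 had 27, 129, 114, 178 and 157 reads in selenite libraries of day 1, against 2 reads in all 6 controls together. At day 6 there were 8, 9, 16 and 8 reads with selenite and 4, 2, 0, 16 and 371 in controls. Its mean in the day 6 controls thus rests on replicate 5, and the groups overlap at day 6. CC84DRAFT_1100329 had 42, 23, 49, 32 and 70 reads with selenite at day 1 and 16 reads in 1 of the 6 controls, then 1, 4, 32 and 7 with selenite at day 6 and 11, 40, 84, 92 and 23 in controls. Both lay below 11 scaled CPM in every library.

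The largest difference at day 1 belonged to CC84DRAFT_1131304, of 4 exons on the minus strand of NW_017253374.1 (649153 to 651496), which lies next to CC84DRAFT_1169519 (1 exon, 647652 to 648913, minus strand), also of the 199. CC84DRAFT_1169519 had 8.12, 13.1, 5.45, 6.08 and 15.8 scaled CPM in selenite libraries of day 1 and 0 to 1.30 in controls, and at day 6 it had 1.58, 0.46, 2.28 and 1.47 with selenite and 10.8, 5.63, 11.1, 2.35 and 2.33 in controls. CC84DRAFT_1131304 had 485, 862, 358, 246 and 684 scaled CPM with selenite at day 1 and 0.57 to 3.54 in controls, and at day 6 it had 23.7, 28.4, 24.6 and 12.2 with selenite and 93.2, 29.7, 75.7, 19.9 and 22.2 in controls. At day 6 the groups overlapped for CC84DRAFT_1131304 and not for its neighbour. The next gene of the row, CC84DRAFT_1169518, was higher at day 1 too (3.87) and not lower at day 6 (0.83), so it was not a member. These genes were named after their values were seen.

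The neighbours CC84DRAFT_1099478 (minus strand, 151266 to 152157) and CC84DRAFT_1125864 (plus strand, 152537 to 153714), of 2 exons each on NW_017253368.1 and likewise picked with their values known, face away from each other. CC84DRAFT_1099478 averaged 3125 ± 603 scaled CPM with selenite at day 1 (SD, n = 5), 932 ± 204 in controls of day 1 (n = 6), 148 ± 28.1 with selenite at day 6 (n = 4), 1517 ± 504 in controls of day 6 (n = 5) and 1076 ± 111 at day 0 (n = 3). CC84DRAFT_1125864 averaged 2745 ± 531, 1236 ± 261, 126 ± 23.2, 1569 ± 531 and 1044 ± 65.3 scaled CPM in the same groups. Both had their lowest mean with selenite at day 6. Against day 0 both rose with selenite at day 1, by 1.52 ± 0.29 and 1.37 ± 0.28, and fell with selenite at day 6, by 2.88 ± 0.30 and 3.07 ± 0.29 (SE; limma adjusted p between 6.86e-09 and 0.000151), while the control groups gave -0.23 to 0.51 (adjusted p = 0.207 to 0.608).

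Most of the 199 genes lay alone. Allowing 1 other gene between successive ones, 22 of them formed 10 runs and 177 stood outside any run, and 7 of the runs held genes next to each other. The longest run had 4 genes on NW_017253362.1, CC84DRAFT_1075561 (1943456 to 1944313), CC84DRAFT_1185379 (1949885 to 1950461), CC84DRAFT_1141383 (1950804 to 1951530) and CC84DRAFT_1257398 (1955862 to 1956611), and the other 9 had 2. Levels in this run were low. CC84DRAFT_1075561 averaged 6.34 ± 3.55 scaled CPM with selenite at day 1 (SD, n = 5), 2.60 ± 1.52 in controls of day 1 (n = 6), 2.94 ± 1.14 with selenite at day 6 (n = 4) and 8.97 ± 3.70 in controls of day 6 (n = 5). CC84DRAFT_1185379 held 67 reads in all selenite libraries of day 1 together, 46 of them in replicate 2, and 28 in controls of day 1. At day 6 it held 79 reads with selenite and 339 in controls. Read totals are not scaled. Its means in the same order were 0.934, 0.160, 0.501 and 1.73 scaled CPM.

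The genes between and beside them did not share the pattern. CC84DRAFT_1257395 between the first and second had differences near 0 (0.05 at day 1 and 0 at day 6). A gene with almost no reads would give such values, and its level is not given here. CC84DRAFT_1162487 before the last had 2.18 and 0.53, and CC84DRAFT_1162483 before the first had 6.09 and 4.45. In the next run by size of the differences after the pair above, CC84DRAFT_1145697 (3 exons, plus strand, 1630221 to 1632551) and CC84DRAFT_741308 (1 exon, minus strand, 1632657 to 1633912) on NW_017253364.1 ran towards each other. CC84DRAFT_1145697 had 1161, 1697, 658, 461 and 970 scaled CPM with selenite at day 1 and 215 to 372 (median 260) in controls. Day 6 libraries had 96.0, 31.6, 23.6 and 16.5 scaled CPM with selenite and 598, 461, 691, 366 and 309 in controls, against 268, 280 and 282 at day 0. It rose with selenite at day 1 by 1.70 ± 0.41 and fell with selenite at day 6 by 3.05 ± 0.43 against day 0 (SE; limma adjusted p = 0.000884 and 2.85e-06). With library size alone the value of day 1 was 0.60 (limma adjusted p = 0.191). CC84DRAFT_741308 had 9.39 ± 2.50 scaled CPM with selenite at day 1 (SD, n = 5), 2.68 ± 3.80 in controls of day 1 (n = 6), 6.24 ± 2.47 with selenite at day 6 (n = 4) and 16.7 ± 11.1 in controls of day 6 (n = 5).

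The 199 genes were 198 protein-coding genes and 1 transfer RNA gene, on 19 of the 33 scaffolds that carry locus tags, with no more than 27 on any. The transfer RNA gene, CC84DRAFT_t103 (NW_017253373.1, 236379 to 236477, minus strand), had 53.3 ± 6.35 scaled CPM with selenite at day 1 (SD, n = 5), 13.1 ± 3.37 in controls of day 1 (n = 6), 3.75 ± 1.21 with selenite at day 6 (n = 4), 20.03 ± 8.49 in controls of day 6 (n = 5) and 11.8 ± 4.60 at day 0 (n = 3). The libraries were made from polyadenylated RNA, so these reads need not come from the mature transfer RNA. The gene models had a median of 3 exons and 1415 bases of exon, beside 2 exons and 1303 bases over all 14844 genes, and 20.6% of them had 1 exon, beside 25.9% of all. In position 23 of them overlapped another gene. The counting kept the strands apart, but some overlaps were on the same strand, as for CC84DRAFT_741308 with CC84DRAFT_1164362 and CC84DRAFT_633354 with CC84DRAFT_633250. Mean levels were under 10 scaled CPM for 87 of the 199 genes with selenite at day 1, 143 in controls of day 1, 145 with selenite at day 6, 75 in controls of day 6 and 133 at day 0.

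At the edge of the rule, the 3 genes just inside were CC84DRAFT_1259216, CC84DRAFT_323735 and CC84DRAFT_1176709, with differences of -1.002, -1.003 and -1.003 at day 6 and of 1.73, 1.37 and 1.96 at day 1. Just outside were CC84DRAFT_1113692 (1.02 at day 1 and -0.997 at day 6), CC84DRAFT_1168485 (0.997 and -1.47) and CC84DRAFT_1157650 (0.994 and -2.54). CC84DRAFT_1157650 had 147 ± 51.6 scaled CPM with selenite at day 1 (SD, n = 5), 73.5 ± 19.7 in controls of day 1 (n = 6), 23.6 ± 9.07 with selenite at day 6 (n = 4) and 140 ± 76.6 in controls of day 6 (n = 5), the same shape as the genes inside. CC84DRAFT_1259216 shows the low end: it held 91 reads in all selenite libraries of day 1 together, 2 in controls of day 1, 10 with selenite at day 6 and 120 in controls of day 6. Its means in the same order were 1.19, 0.0114, 0.0617 and 0.625 scaled CPM. How many genes met the rule depended on its settings: there were 152 under TMM scaling and 121 when CPM was not scaled, with 92 of the 199 under both, and 334 with a pseudocount of 0.1 and 108 with 2.

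The authors' deposited tables for day 1 and day 6 hold 192 and 198 of these genes, each with a log2 fold change of the sign the rule asks for. The authors' deposited time-course table of 4611 genes holds 71 of the 199 (35.7%), and 30.7% of all genes with locus tags. In the division of that deposited table into 5 clusters, 47 of the 71 were in cluster 2, 20 in cluster 3 and 4 in cluster 5, with none in the other 2. Cluster 2 holds 37.7% of all genes in the authors' deposited table and 66.2% of the 71. These tables were made from the same libraries.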

How the data were processed

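The values came from the table of CPM deposited by the authors, reads per gene divided by the library's reads in genes; all 348772 values (100%) stood for a whole number of reads to within 1e-06, and 3 reads were worth 0.0918 to 0.129 CPM. Per the submitters' processing notes, the tools included STAR 2.7.1a, Trimmomatic 0.39, edgeR 3.36.0 under R 4.1.0 and Subread 2.0.6 (featureCounts). No genome build is named, and none is used for positions beyond those deposited. Per the file headers, counting used strand option 2. Exon positions and lengths came from the deposited count table, whose 23 columns of counts per library were not used because they hold numbers for few genes in the form used here. The authors' deposited tables for day 1 and day 6 give log2 fold changes, an F score, p-values and adjusted p-values, and their time-course table gives p-values and cluster numbers (a score), per the file headers.

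Each library's CPM was divided by its median ratio to the geometric means of 9705 genes above 0 in all 23 libraries. Log2(scaled CPM + 0.5) of 13676 genes kept by filterByExpr (minimum count 10, minimum total count 15) was fitted by limma 3.58.1 with a variance trend in R 4.3.3, with 5 group means and no block; calls used a two-sided Benjamini-Hochberg adjusted p under 0.05 over all tested genes. Fold changes on this scale understate those of low genes. Counts of reads were tested by edgeR 4.0.16, limma-voom and DESeq2 1.42.0 as alternatives. The procedure was tested on simulated data. Reads are not counts of molecules, and the worth of 3 reads speaks of counting error alone. No p is given for a sum over the chosen genes, although the design allowed a permutation test of it against day 0, since the genes were chosen with the results known.

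The members and lists were chosen with earlier results of these data known. Genes were named by rule: the 6 with the largest smaller difference, the 4 highest in selenite day 1, control day 6 and control day 0, the 3 nearest the thresholds on each side, and the 3 longest runs, ties broken by the mean of the smaller differences, a choice made after seeing the data. Others are marked where named. All 199 locus tags matched the RefSeq table of assembly Parsp1, which gives no products. No 2 libraries of a group had near-identical counts.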

Additional observations from a re-analysis of the deposited data

Results flagged for a closer look

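Of 104 groups of 4 to 6 libraries examined for the named genes, their sum, share and median, 9 held a library far from the others; chance flags about 1 in 20. In controls of day 1, replicate 1 was the far library 7 times, always above the rest: CC84DRAFT_8385 with 1206 scaled CPM (25.6 to 243 in the others), CC84DRAFT_323735 with 16.7 (5.58 to 9.31), CC84DRAFT_741308 with 10.2 (0 to 2.39), CC84DRAFT_1168485, which was not a member, with 2.91 (0 to 0.772), CC84DRAFT_1257398 with 1.505 (0 to 0.166), CC84DRAFT_1185379 with 0.958 (0 in the others) and CC84DRAFT_1259216 with 0.0684 (0 in the others). In selenite libraries of day 1, replicate 1 had 12.7 scaled CPM of CC84DRAFT_1075561 (4.40 to 5.10 in the others) and replicate 2 had 3.45 of CC84DRAFT_1185379 (0 to 0.733). The share of reads, the sum and the median of the 199 genes held no such library in the 4 groups examined.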

How the results depend on the processing

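The number of genes that met the rule, 199, was 121 with library size alone (100 of them among the 199), 334 and 108 with pseudocounts of 0.1 and 2, 51 with thresholds of 1.5 and -1.5, and 123 without replicates 1 and 3 of the day 6 controls (112 of them among the 199). Leaving out 1 library at a time gave 167 to 281, with 107 of the 199 kept every time; the highest was without replicate 1 of the day 1 controls. The other 4 settings gave 152 to 210.

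Genes called against day 0 numbered 90 to 116 for selenite at day 1, 58 to 98 for controls of day 1, 54 to 65 for selenite at day 6 and 33 to 86 for controls of day 6 when 1 library was left out, where 53.2% to 61.2%, 20.6% to 29.3%, 33.3% to 43.0% and 8.44% to 23.4% of all tested genes were called. Controls of day 6 gave 34 without replicates 1 and 3 (10.7% of all tested genes). In the same order, edgeR gave 90, 74, 59 and 54 (57.1%, 26.1%, 39.3% and 19.1% of all tested genes) and DESeq2 gave 105, 86, 67 and 73 (59.3%, 30.6%, 42.6% and 24.3%). Without scaling factors the log2 median over all genes moved by -0.82, -0.37, 0.09 and 0.18, and under TMM by -0.11 for selenite at day 1.

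The summed level against day 0 (log2) was 2.15, 0.53, -1.52 and 0.89. With library size alone selenite at day 1 gave 0.99 and controls of day 1 -0.00064; the median gene gave 1.16, -0.70 and -0.56 for the first 3 groups. Of 881 values of named genes under other settings, 788 were rated as kept, 45 as weaker and 48 as moved, and 0 changed sign. These ratings are not a count of lost calls. Lost calls outnumbered the values rated as weaker, and most of them were in controls of day 6.

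Deviations of same-numbered libraries from their group means correlated by -0.21 to 0.40 (39 pairs, mean 0.04). Libraries of other numbers gave -0.37 to 0.48 (170 pairs, mean -0.008). These values, taken over all tested genes, cannot tell if replicate numbers pair libraries. With the replicate block the counts were 122, 77, 63 and 97 (59.4%, 26.6%, 41.8% and 25.1% of all tested genes). Without it they were 112, 83, 62 and 71 (59.9%, 27.6%, 41.7% and 20.9%).

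Genes with few reads limit the precision: the controls of day 1 held no read of up to 29 of the 199 genes in a library.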
